A study of Mus musculus with 15 samples.

Results

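Cytosolic ribosomal protein genes encode the proteins that form, with ribosomal RNA, the large (Rpl) and small (Rps) subunits of the ribosome. They were chosen by symbol: an entry of the count files was a member when its symbol began with RPL or RPS and a digit, or was RPLP0, RPLP1, RPLP2 or RPSA. Of 21025 gene entries, 90 met this rule, after 10 entries for S6 kinases (RPS6K) and 1 for RPS19BP1 had been left out. The 90 entries were 77 canonical genes (46 of the large and 31 of the small subunit), 6 paralogues whose symbols end in L or L1, and 7 further entries that carry a member's symbol with the accession of another transcript. Of these, 76 canonical genes, 5 paralogues and all 7 further entries had enough reads to be tested.

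The libraries were made from polyadenylated RNA of untreated mouse lymph node cells that a magnetic kit had selected for CD8. Mice were 15 weeks old, and 5 libraries came from each of 3 genotypes: C57BL/6N (written WT), cS5Alo and cS5Ahi. By what is known of the study, cS5Alo and cS5Ahi are transgenic mice that express constitutively active STAT5A, less in cS5Alo and more in cS5Ahi; the labels used here give only the names, not the promoter, and do not say how many founder lines were used. Each WT library pooled the lymph nodes of 2 to 3 mice, and the number of mice behind the other libraries is not given. The labels do not call the replicates separate animals, so the p-values cover only the spread seen among these 15 libraries, which may be technical.

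Ribosomal protein mRNAs are among the most abundant transcripts of a lymphocyte. Many begin with a C followed by a stretch of pyrimidines, the 5′ terminal oligopyrimidine (TOP) motif, through which mTOR and the RNA-binding protein LARP1 control their translation as a group. The subunits hold most of these proteins in fixed proportion, and T cells that are activated to grow enlarge their ribosome supply. STAT5 is the transcription factor downstream of IL-2, IL-7 and IL-15 receptors in CD8+ T cells.

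Each library had between 12177642 and 33948416 reads in genes. In WT 3, WT 4 and cS5Ahi 4, 36.84 to 40.82% of reads lay outside annotated genes, and in the other libraries 23.04 to 30.24%. The 5 cS5Ahi libraries were sequenced on 1 flow cell and the other 10 on a different one, so flow cell and the cS5Ahi genotype cannot be told apart. On the shared flow cell, WT 1 and WT 2 were in lane 2 and the other libraries in lane 3. The description of cS5Ahi 1 names cS5Alo, whereas its title and genotype give cS5Ahi, which was kept. The summed level of 5 CD8 T cell markers lay between 5723 and 7731 CPM (counts per 1000000 reads in genes, with library sizes scaled by TMM factors) in all libraries. Of the 5, none was called against WT. Cd3d and Cd3g were called lower in cS5Ahi than in cS5Alo (log2 fold changes -0.37 and -0.35, edgeR adjusted p 0.0386 and 0.0395). The other 3 were above 0, and 3.77% of all genes were called lower in that comparison. Lists taken as markers of other cells moved with genotype. At an edgeR adjusted p under 0.05, 9 of 11 B cell markers were called lower in cS5Ahi than in WT. So were 5 of 8 dendritic cell markers, beside 7.25% of all genes. Called higher were 3 of 6 natural killer cell markers (6.88% of all genes), namely Eomes, Klrb1c and Klre1. Whether natural killer cells or the CD8 T cells themselves expressed these 3 was not tested. Below 0 were 10 of 11 B cell and 7 of 8 dendritic cell markers. The natural killer cell markers did not all move the same way: 5 of 6 were above 0. The remaining marker, Ncr1, had a log2 fold change of -1.845 and was not called. Its level was low, with group medians of 1.03 (WT) and 0.16 CPM (cS5Ahi). The 11 B cell markers summed to 97.02–347 CPM (WT), 162–262 CPM (cS5Alo) and 80.9–153 CPM (cS5Ahi), and 9 salivary gland markers to 604–5531, 59.3–4187 and 46.7–938 CPM in the same order. Apart from a fit with the B cell score, their part in the results was not tested, and in bulk RNA fewer cells of a type and less RNA per cell cannot be told apart.

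Canonical ribosomal protein genes took between 16.3 and 25.9% of all reads in genes. In order of replicate number, the share was 24.0, 18.8, 16.3, 19.1 and 21.5% in WT, 23.5, 24.7, 23.6, 25.3 and 17.9% in cS5Alo, and 23.1, 19.5, 25.9, 20.5 and 22.5% in cS5Ahi; values are given in this order throughout. The 3 genotypes overlapped throughout, with means of 19.9% ± 2.91 (SD, n = 5) in WT, 23.0% ± 2.97 (n = 5) in cS5Alo and 22.3% ± 2.50 (n = 5) in cS5Ahi. The lowest library was WT 3 and the next lowest cS5Alo 5. With each gene set against its own mean over the 15 libraries on the log2 CPM scale, the median over 76 canonical genes was lowest at -0.51 (WT 3) and highest at 0.14 (WT 1) among WT libraries. For cS5Alo the extremes were -0.29 (library 5) and 0.27 (library 4), and for cS5Ahi they were -0.15 (library 2) and 0.35 (library 3). In WT 3, 1 of 76 genes was above its own mean, and in cS5Alo 4, 75 of 76 were. Large and small subunit genes moved together within libraries: their medians in WT 3 were -0.51 and -0.51, and in cS5Ahi 3 they were 0.35 and 0.34.

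**Figure D1:**
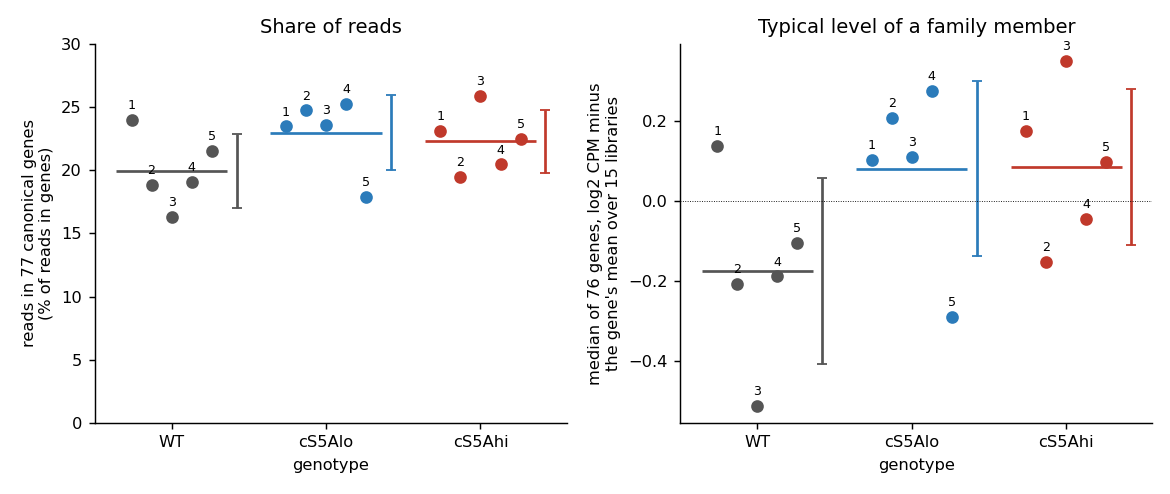
Share of gene reads in the 77 canonical genes (left, percent) and the median log2 CPM of the 76 tested genes relative to each gene's mean over 15 libraries (right), by genotype. Points are libraries with their replicate number, horizontal lines are means and bars SD (n = 5); WT 3 is lowest in both panels, and the 3 genotypes overlap.

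Levels ran over a wide range between genes. Per kilobase of coding sequence, the mean over genotypes ran from 809 CPM for Rps23 to 78035 CPM for Rpl41, a 96.4-fold range with a median of 4563 CPM. Rpl41, the smallest protein of the ribosome, has a coding sequence of 75 bases, and Rps28 (25491 CPM per kilobase) and Rps29 (21779) came next. The lowest after Rps23 were Rplp2 (943) and Rpl21 (1027). Reads over untranslated parts counted too, so levels per coding length of the shortest genes are overstated to an extent that was not measured. Rpl26 had 0 reads in all 15 libraries, where a count of 0 allows up to 3 reads in a library, and no statement on its expression is made. Copies of these genes are frequent in the genome: 30 of 77 canonical genes shared all 50-base stretches of their coding sequence with another annotated gene, the median was 93.05%, and 4, Rpl4 among them, shared under 25%. The submitters' notes do not say how reads matching several places were counted, so the level of nearly every member is uncertain in that respect.

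Against WT, cS5Ahi libraries had higher levels of 7 of 76 canonical ribosomal protein genes and lower levels of none (edgeR quasi-likelihood test, Benjamini-Hochberg adjusted p under 0.05). These 7 are 9.21% of the genes, beside 6.88% of all 11979 tested genes called higher, 7.25% called lower and 14.1% called in either direction. They were Rpl13, Rpl14, Rpl4, Rpl24 and Rpl36a of the large subunit and Rps6 and Rps20 of the small subunit. Across the 76 genes, 67 had a fold change above 0 and the median log2 fold change was 0.26, from -0.24 to 0.66, where the median of all genes was 0.0003. Large and small subunit genes had like medians, 0.26 over 45 genes and 0.23 over 31.

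Rpl13, a component of the large subunit that contacts its ribosomal RNA, showed the largest called difference. Its CPM was 2458, 2267, 1624, 2333 and 2651 in WT, 2822, 3171, 2238, 2685 and 1923 in cS5Alo, and 3028, 2886, 4832, 2820 and 3808 in cS5Ahi. All cS5Ahi libraries were above all WT libraries, cS5Ahi 3 was the highest and WT 3 the lowest. The log2 fold change of cS5Ahi against WT was 0.62 ± 0.17 (SE, adjusted p = 0.0209), and that of cS5Alo against WT was 0.18 ± 0.17 (adjusted p = 0.71).

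Rpl14, of the large subunit, had CPM of 1688, 2377, 1997, 2129 and 1805 in WT, 2257, 2342, 2528, 2570 and 2187 in cS5Alo, and 3254, 2364, 2784, 2444 and 2512 in cS5Ahi. The lowest cS5Ahi library lay just under the highest WT library, and the log2 fold change was 0.42 ± 0.12 (adjusted p = 0.0225). Rpl4, which lines part of the tunnel through which the new protein leaves the ribosome, had CPM of 3152, 3134, 2486, 2763 and 2927 in WT, 3173, 3212, 3143, 3437 and 2977 in cS5Alo, and 3757, 3309, 4331, 3269 and 3698 in cS5Ahi. Its groups did not overlap between cS5Ahi and WT, with a log2 fold change of 0.34 ± 0.11 (adjusted p = 0.0375). Rpl4 is also 1 of the few members whose coding sequence is mostly its own: 20.28% of its 50-base stretches occurred in another gene.

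Rpl24, which forms part of a bridge between the subunits, had CPM of 957, 1025, 822, 991 and 817 in WT, 1006, 1130, 1172, 1247 and 996 in cS5Alo, and 1303, 1036, 1308, 1073 and 1148 in cS5Ahi. The cS5Ahi libraries were all above WT by a small margin, and cS5Alo values overlapped theirs (log2 fold change of cS5Ahi against WT 0.35 ± 0.11, adjusted p = 0.042). Rpl36a, another large subunit protein, had CPM of 865, 1062, 935, 1048 and 686 in WT, 993, 987, 1240, 1234 and 976 in cS5Alo, and 1526, 1066, 1152, 1365 and 1071 in cS5Ahi. The lowest cS5Ahi value was just above the highest WT value, with a log2 fold change of 0.43 ± 0.14 (adjusted p = 0.047).

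Rps6, the small subunit protein that S6 kinases phosphorylate, had CPM of 6271, 4482, 3973, 4704 and 5221 in WT, 5426, 5720, 5691, 6654 and 4857 in cS5Alo, and 7464, 5698, 8111, 5765 and 6485 in cS5Ahi. WT 1 was above 2 of the 5 cS5Ahi libraries, and the log2 fold change was 0.44 ± 0.14 (adjusted p = 0.039). Rps20, of the small subunit head, had CPM of 7426, 6417, 5381, 6188 and 6735 in WT, 7269, 7787, 8136, 8341 and 5991 in cS5Alo, and 9022, 6549, 10296, 8191 and 8429 in cS5Ahi. WT 1 and WT 5 were above cS5Ahi 2, and the difference was just past the threshold (0.40 ± 0.13, adjusted p = 0.0498). In all, 4 of 76 genes (Rpl13, Rpl4, Rpl24 and Rpl36a) had cS5Ahi values that did not overlap WT, where 5.98% of all genes did so in that direction.

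**Figure D2:**
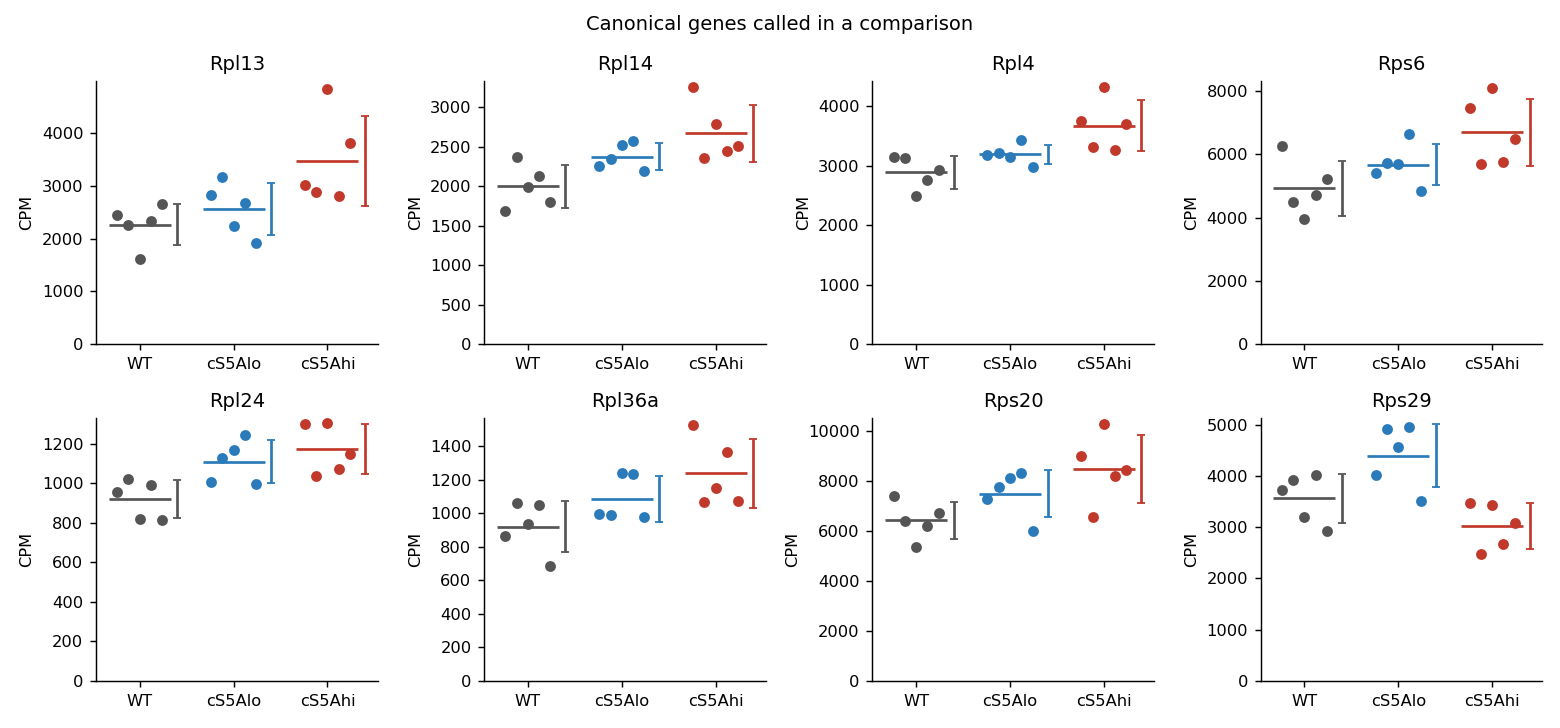
CPM of 8 canonical genes called in a comparison, by genotype; each panel starts at 0. Points are libraries in replicate order, lines means and bars SD (n = 5); Rps29 is lower in cS5Ahi than in cS5Alo, and the other 7 are higher in cS5Ahi than in WT.

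The count of 7 changed with single libraries: it was 1 without WT 3, cS5Ahi 1 or cS5Ahi 3, 2 without cS5Ahi 5, 4 without WT 4 or WT 5, 11 without WT 1, and 0 when WT 3, WT 4 and cS5Ahi 4, the libraries with most reads outside genes, were left out together. With a covariate for B cell markers it was 0, while the median log2 fold change was 0.31. Genes called higher among all tested genes fell too, from 824 in the reported fit to 229 with this covariate. The B cell score, the mean log2 CPM of the markers, itself differed by genotype, averaging 4.02 in WT and 2.33 in cS5Ahi. Among the 7, Rpl14 was called in 8 and Rpl13 in 7 of 10 fits that left out 1 library, Rpl4, Rpl24, Rpl36a and Rps6 in 4, and Rps20 in 2. Without WT 3, the median log2 fold change of the 76 genes was 0.18 and 57 were above 0.

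The 30 bases around the annotated start (10 before, 20 after) are shown because the TOP motif is read at this place. They are given for the genes called in cS5Ahi against WT that had a start window among those taken from RefSeq (GRCm38.p6). Rps20, also called, had none. Capitals mark the longest stretch of C and T that opens with a C and begins within 10 bases of the start. Positions give the window and strand, and letters run 5′ to 3′ on the strand of the gene.
Rpl14, chr9:120571507-120571536, plus strand: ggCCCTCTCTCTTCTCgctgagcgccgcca
Rps6, chr4:86857348-86857377, minus strand: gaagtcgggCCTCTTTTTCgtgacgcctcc
Rpl36a, chrX:134585644-134585673, plus strand: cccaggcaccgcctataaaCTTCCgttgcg
Rpl13, chr8:123102340-123102369, plus strand: tttcgCCTgattttgattggcgtttgagat
Rpl4, chr9:64173377-64173406, plus strand: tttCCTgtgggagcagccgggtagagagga
Rpl24, chr16:55966265-55966294, plus strand: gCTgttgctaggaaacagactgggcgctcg
A run of at least 6 bases stood in Rpl14 (14 bases) and Rps6 (10 bases) and not in the other 4 windows. The bound of 6 was a choice, and Rpl36a had a run of 5 bases. Whether transcripts in these cells begin at the annotated starts was not tested, so a window without such a run does not show that the mRNA lacks the motif. Of 57 canonical genes with a window, 31 (54.4%) had such a run on the gene's strand, against 21.9% of 27025 genes in the table. The 31 genes with a run had a median log2 fold change of 0.22 in cS5Ahi against WT with 2 called, and the 25 tested genes without one had 0.28 with 4 called. The letters TTCNNNGAA, the form of DNA bound by STAT5, read the same on both strands. They stood between 250 bases before and 50 after the start of 3 of 57 canonical genes (5.26%), Rpl4 among them, and of 9.55% of all genes; a match is a description of the letters and not of binding.

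In cS5Alo against WT, none of 76 canonical genes was called, as for all 11979 genes (percent called 0). At an unadjusted p under 0.05 there were 16 canonical genes and 1356 genes in all (11.3%); DESeq2 called 89 genes, none of them canonical members. Of the canonical genes, 74 of 76 were above 0, with a median log2 fold change of 0.23 beside -0.0003 over all genes. Of mitochondrial ribosomal protein genes, 65 of 75 were above 0 with a median of 0.17. Canonical members vary together between libraries, so their fold changes are not independent of each other. No canonical gene's groups were apart (1.71% of all genes were). The WT libraries are shared with the comparison of cS5Ahi, so the 2 sets of fold changes are not independent. The largest were Rpl23 (0.51 ± 0.17, adjusted p = 0.292) and Rpl41 (0.45 ± 0.13, adjusted p = 0.256). Rpl41 CPM was 5452, 4753, 4050, 5228 and 4839 in WT and 6163, 6888, 7210, 7808 and 5220 in cS5Alo. The 4 upper cS5Alo libraries were above every WT library, and cS5Alo 5 was not. The only values below 0 were those of Rpl18 (-0.13 ± 0.23) and Rps14 (-0.05 ± 0.22). Within lane 3 alone, where WT 3 to 5 stand against all 5 cS5Alo libraries, 76 of 76 were above 0 with a median of 0.33 and none was called. Without WT 3, WT 4 and cS5Ahi 4, 58 of 76 were above 0 and the median was 0.12.

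**Figure D3:**
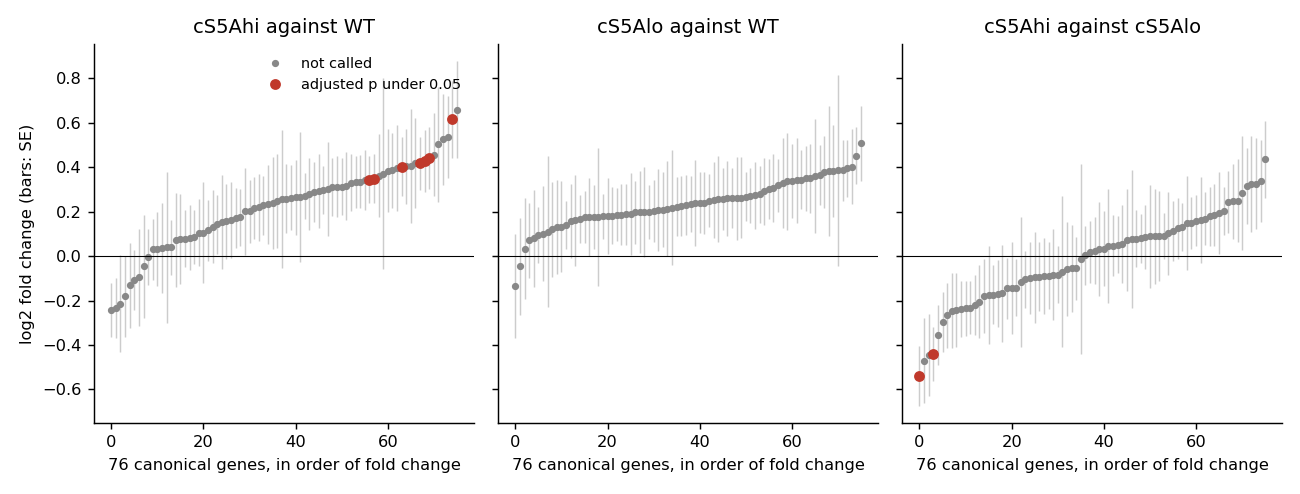
Log2 fold changes (points) with SE (bars) of the 76 canonical genes in 3 comparisons, each panel in order of fold change; red points passed an adjusted p under 0.05. Most genes are above 0 in both comparisons with WT, and the comparison of cS5Ahi with cS5Alo is split around 0 with Rps29 at its lower end.

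Between the 2 transgenic genotypes, 2 of 76 canonical genes (2.63%) were lower in cS5Ahi and none was higher, where 3.77% of all genes were called lower, 4.87% higher and 8.64% in either direction. In both the groups did not overlap (4.9% of all genes in that direction). Rps29, a zinc-binding protein of the small subunit head, had CPM of 4024, 4909, 4563, 4949 and 3513 in cS5Alo and 3474, 2469, 3432, 2664 and 3087 in cS5Ahi, with 3725, 3921, 3203, 4022 and 2929 in WT. The highest cS5Ahi value was just under the lowest cS5Alo value, and the log2 fold change was -0.54 ± 0.13 (adjusted p = 0.0157).

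Against WT, Rps29 was at -0.23 ± 0.13 in cS5Ahi (adjusted p = 0.287), which did not pass the test. Rps29 passed the test of cS5Ahi against cS5Alo in 10 of 10 fits that left out 1 library. With a covariate for B cell markers, or with an offset for coding length, it did not pass. Genes called lower among all tested genes were 452 in the reported fit, 111 with that covariate and 479 with that offset. Among canonical genes, the largest values above 0 were Rpl13 (0.44 ± 0.17, adjusted p = 0.137) and Rpl3 (0.34 ± 0.18, adjusted p = 0.314). The median of the 76 was 0.02, with 40 genes above and 36 below 0. Ordered by genotype means, 39 of 76 genes ran WT, cS5Alo, cS5Ahi from low to high, 28 ran WT, cS5Ahi, cS5Alo, 7 had cS5Ahi lowest and cS5Alo highest, and the other 2 had WT highest.

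Fold changes between the 2 transgenic genotypes went with the length of the gene. In cS5Ahi against cS5Alo, the log2 fold change rose with coding length over the 76 genes (Spearman's rho 0.61, Pearson's r 0.60 on log2 length), as a description across genes, which share libraries and are not independent replicates. The 25 genes under 400 coding bases had a median of -0.15 with 6 above 0, the 29 of 400 or more but under 600 bases a median of -0.06 with 13 above 0, and the 22 of 600 bases or more a median of 0.15 with 21 above 0. The relation was like in both subunits (rho 0.61 over 45 large and 0.58 over 31 small subunit genes). Over 11273 other genes, rho was 0.07, but 9903 of them had 600 coding bases or more, so their lengths were unlike those of members. The 515 other genes under 400 bases had a median of -0.12 with 175 above 0. The 855 of 400 or more but under 600 bases had a median of -0.02, and the 9903 longer ones one of 0.003. Length was examined after the data had been seen, and both bounds were set then.

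Set against the same WT libraries, the 2 genotypes had slopes of opposite sign. In cS5Ahi, rho with coding length was 0.39, with medians of 0.16 for short, 0.24 for middle and 0.33 for long genes. In cS5Alo, rho was -0.49, with medians of 0.33, 0.22 and 0.19. Over the other genes, rho was -0.07 in cS5Ahi and -0.19 in cS5Alo. Their medians were 0.003, 0.06 and -0.005 in cS5Ahi, and 0.10, 0.07 and -0.01 in cS5Alo. Of the 515 short other genes, 260 were above 0 in cS5Ahi and 340 in cS5Alo. Per library, the median deviation of short members minus that of long members was taken. It was -0.12, 0.14, 0.12, 0.19 and -0.24 in WT and 0.04, 0.11, 0.30, 0.21 and 0.06 in cS5Alo. In cS5Ahi it was -0.05, -0.22, -0.31, 0.01 and -0.16. All cS5Alo libraries were above all cS5Ahi libraries, and WT spanned both. With group means of log2 CPM, rho for cS5Ahi against cS5Alo stayed between 0.54 and 0.65 when 1 library was left out, and rho for cS5Alo against WT was -0.21 without WT 5. The cS5Ahi libraries were all on their own flow cell, which cannot be told apart from genotype here.

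**Figure D4:**
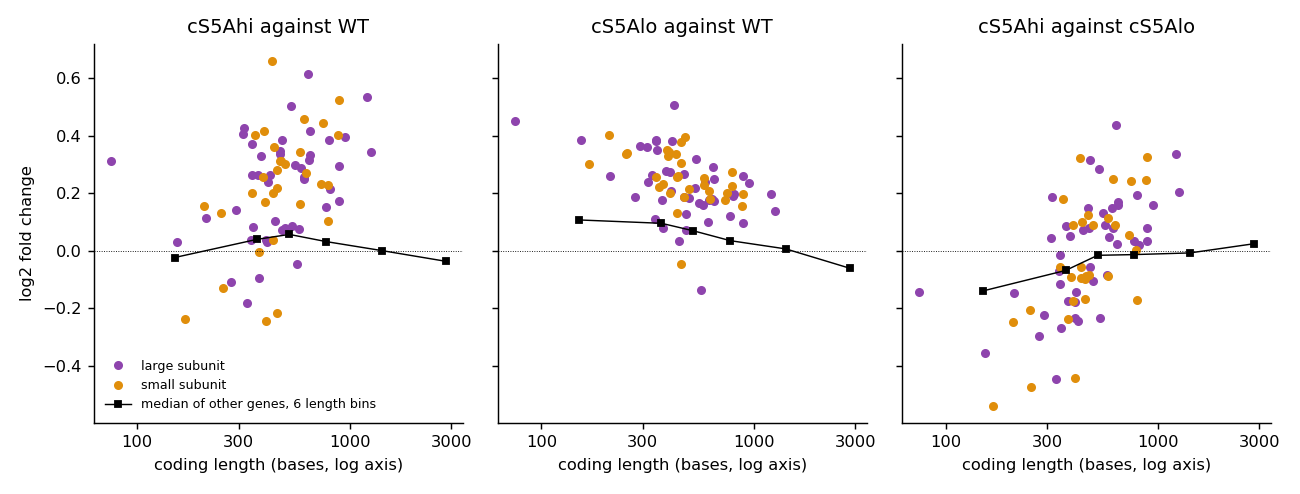
Log2 fold change against coding length (bases, log axis) for 45 large and 31 small subunit genes, with the median of all other tested genes in 6 length bins (squares). In the right panel short members lie mostly below 0 and long members above, and the other genes show a shallower slope.

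Among genes chosen for their roles, the proteins that bind MDM2 outside the ribosome, Rpl5 and Rpl11, did not pass the edgeR test in any of the 3 comparisons (limma voom called Rpl11 lower in cS5Ahi than in cS5Alo). Rpl5 CPM was 3662, 2490, 1924, 2097 and 2843 in WT, 3033, 3146, 3365, 3649 and 2390 in cS5Alo, and 3603, 2961, 3857, 2607 and 2930 in cS5Ahi, with the groups overlapping (cS5Ahi against WT 0.29 ± 0.17, adjusted p = 0.284). Rpl11 CPM was 1567, 1329, 1069, 1213 and 1305 in WT, 1534, 1689, 1617, 1840 and 1402 in cS5Alo, and 1484, 1259, 1584, 1171 and 1386 in cS5Ahi. Its largest fold change was that of cS5Alo against WT (0.32 ± 0.12, adjusted p = 0.353). Rpl10, which is added late to the large subunit and forms part of its catalytic surroundings, was at 0.32 ± 0.15 in cS5Ahi (adjusted p = 0.192) and 0.29 ± 0.15 in cS5Alo (adjusted p = 0.477) against WT. Rpsa, the laminin receptor homologue of the small subunit, was at 0.53 ± 0.20 in cS5Ahi against WT (adjusted p = 0.097), with cS5Ahi 3 at 6056 CPM and WT 3 at 2003 CPM. Rps27a, made as a fusion with ubiquitin, was at 0.31 ± 0.14 (adjusted p = 0.147). Fau, a fusion with a ubiquitin-like protein outside the symbol rule, was not called either (0.21 ± 0.19, adjusted p = 0.532).

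The stalk proteins, which recruit elongation factors to the large subunit, varied most from library to library. The SD within genotypes of log2 CPM was 0.75 for Rplp2, 0.63 for Rplp1 and 0.58 for Rpl15, beside a median of 0.28 over the 76 genes and a lowest value of 0.12. Rplp2 CPM was 382, 149, 134, 133 and 557 in WT, 487, 512, 276, 369 and 127 in cS5Alo, and 373, 309, 430, 255 and 388 in cS5Ahi. WT 1 and WT 5 were above WT 2, WT 3 and WT 4, and cS5Alo 5 was below the other cS5Alo libraries. Rplp1 CPM was 7026, 2344, 1783, 2694 and 5493 in WT, 5033, 5599, 3650, 4435 and 2146 in cS5Alo, and 3601, 3236, 6064, 2879 and 4090 in cS5Ahi. Rpl15, a large subunit protein outside the stalk, had 3293, 1256, 970, 1200 and 3022 CPM in WT. WT 1 and WT 5 were thus high in all 3 genes, and the 2 lie in different lanes. Rplp0, the base of the stalk, was steadier at 3676 to 6657 CPM in WT, and none of the 3 stalk genes was called in any comparison (Rplp0 in cS5Ahi against WT 0.40 ± 0.19, adjusted p = 0.198).

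Paralogues ending in L or L1 encode relatives of a canonical protein that can take its place in some tissues. None of the 5 tested was called in any comparison, with fold changes of cS5Ahi against WT between -0.50 and 0.18. The ratio of each to its partner, per coding base, was compared in 5 pairs of genes and 3 pairs of genotypes, 15 two-sided exact permutation tests in all, where the smallest p that 5 against 5 libraries allow is 0.00794. The Rpl36al to Rpl36a ratio was 42, 43.3, 39.7, 41.6 and 43.7% in WT, 44.2, 40.5, 43.8, 44.4 and 45.0% in cS5Alo, and 29.8, 26.8, 29.6, 27.9 and 32.95% in cS5Ahi. All cS5Ahi values were below all others and the spread within groups was small: 42.1% ± 1.60 (SD, n = 5) in WT, 43.6% ± 1.79 (n = 5) in cS5Alo and 29.4% ± 2.34 (n = 5) in cS5Ahi. Exact permutation p was 0.00794 for cS5Ahi against each of the other genotypes, 0.0595 after adjustment over the 15 tests, which does not pass 0.05. As 0.00794 is the smallest p possible, these tests could not have passed beside the other p-values, however far apart the groups lay. For cS5Alo against WT exact p was 0.214 (adjusted 0.402).

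Both genes entered the ratio: Rpl36a, on the X chromosome, was higher in cS5Ahi than in WT as given above, while Rpl36al, on chromosome 12, was at -0.09 ± 0.14 against WT (adjusted p = 0.746) and -0.39 ± 0.14 against cS5Alo (adjusted p = 0.101). Rpl36al CPM was 363, 460, 371, 436 and 300 in WT, 439, 399, 543, 548 and 440 in cS5Alo, and 454, 285, 340, 381 and 353 in cS5Ahi. The groups overlapped in Rpl36al itself, in contrast to the ratio. All 50-base stretches of the coding sequence of each gene occur in another annotated gene, and the cS5Ahi libraries were all on 1 flow cell; the part of either in the ratio was not tested.

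Rpl22l1, the paralogue of Rpl22, an RNA-binding protein of the large subunit with a known role in T cell development, was the most abundant paralogue relative to its partner in some WT libraries. Its ratio to Rpl22 was 24.0, 66.8, 67.1, 48.8 and 19.5% in WT, 28.9, 25.4, 48.0, 41.2 and 53.6% in cS5Alo, and 30.7, 24.8, 17.7, 29.4 and 20.2% in cS5Ahi. WT 1 and WT 5 were as low as cS5Ahi, and the exact permutation p was 0.127 for cS5Ahi against WT (adjusted 0.289) and 0.0556 against cS5Alo (adjusted 0.208). Rpl22l1 CPM was 102, 219, 183, 180 and 65.5 in WT, 120, 116, 205, 196 and 173 in cS5Alo, and 145, 97.1, 88.9, 114 and 84.4 in cS5Ahi (cS5Ahi against WT -0.50 ± 0.27, adjusted p = 0.252). Rpl22 was at 0.33 ± 0.13 in cS5Ahi against WT (adjusted p = 0.0976) and 0.28 ± 0.13 in cS5Alo (adjusted p = 0.425).

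The other paralogues were minor. Rpl7l1, a relative of Rpl7 that acts in the nucleolus, was at 3.98% ± 0.51 (SD, n = 5) of its partner in WT, 3.46% ± 0.26 (n = 5) in cS5Alo and 3.50% ± 0.33 (n = 5) in cS5Ahi. Rps27l, a known p53 target, was at 1.02% ± 0.44 (n = 5), 0.89% ± 0.40 (n = 5) and 1.18% ± 0.19 (n = 5) of Rps27 in the same order. Rpl39l, best known from testis, was under 0.12% of Rpl39 in every library, and Rpl3l, known from skeletal and heart muscle, had at most 0.35 CPM in any library and was not tested. Adjusted p over the 15 tests was 0.208 or more for all pairs other than Rpl36al and Rpl36a.

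**Figure D5:**
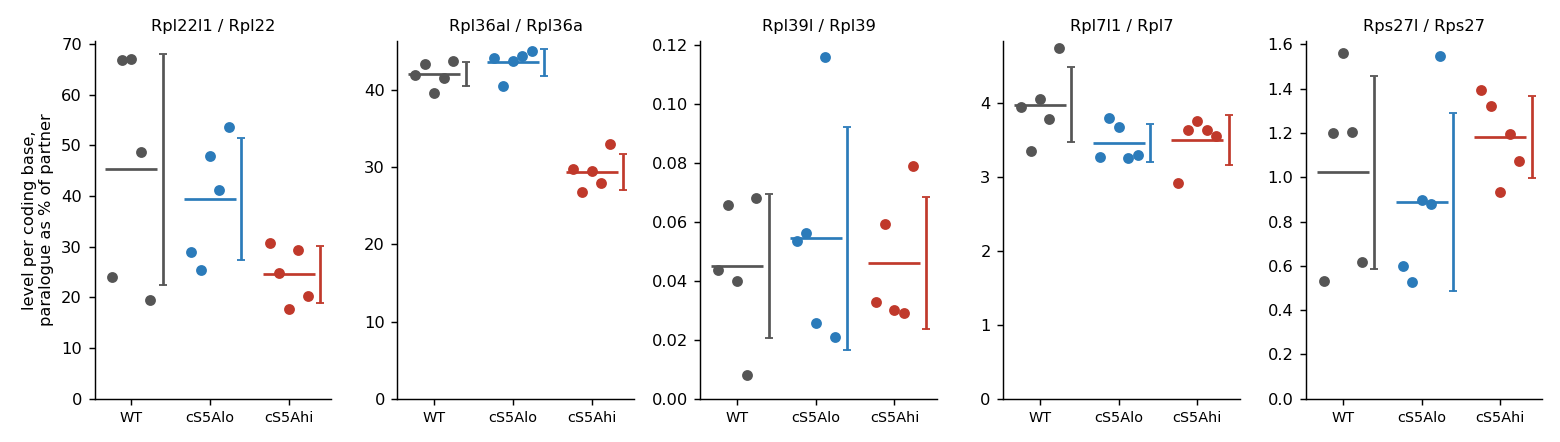
Level per coding base of 5 paralogues as percent of the canonical partner, by genotype, each panel starting at 0. Points are libraries, lines means and bars SD (n = 5); the Rpl36al ratio is near 42 to 44% in WT and cS5Alo and 29.4% in cS5Ahi with no overlap, and the other 4 pairs overlap.

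The 7 entries that carry a member's symbol with another accession were kept apart from the canonical genes. The entry labelled RPL13A with an accession that RefSeq gives to Flt3l, the ligand of the dendritic cell receptor FLT3, lay between 53.1 and 98.1 CPM (WT), 57.3 and 90.2 CPM (cS5Alo) and 66.7 and 92.3 CPM (cS5Ahi). The other 6 were at 2.64 CPM or less in every library, among them entries that match the RefSeq genes Gm15421, Rpl32l and Rps4l. None of the 7 was called.

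Members varied together within genotypes. The median correlation of log2 CPM deviations over pairs of the 76 genes was 0.66 over 15 libraries, with 87.9% of pairs above 0, beside 0.37 for 75 mitochondrial ribosomal protein genes and -0.001 for all tested genes; such values share library and depth and carry no test. Short members correlated with long members at a median of 0.56. Outside the family, among genes above a set mean CPM, those most like the family's median deviation were Psme2 (r = 0.95), Nme2 (0.95) and Grcc10 (0.95). The list of the 15 closest held the elongation factor Eef1b2 (0.93) and Rack1 (0.93), which sits on the small subunit. It also held Txndc17 (0.94), Tmem147 (0.94), Mdh1 (0.93), Atp5e (0.93) and Cox4i1 (0.93), so it was not confined to genes that work with the ribosome.

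The machinery that works with the ribosome was taken from lists of known genes. In cS5Ahi against WT, 3 of 11 genes of a list of elongation factors, their regulators and release factors were called higher and none lower, with a median log2 fold change of 0.32: Eef1a1 (0.43 ± 0.13, adjusted p = 0.0275), which delivers aminoacyl-tRNA, and Eef1b2 (0.35 ± 0.11, adjusted p = 0.0303), its exchange factor, were among them. Initiation factors were called higher in 6 of 35, including the eIF3 subunits Eif3f (0.64 ± 0.13, adjusted p = 0.00244) and Eif3l (0.45 ± 0.11, adjusted p = 0.00696). Chaperones, importers and assembly factors of ribosomal proteins were called higher in 6 of 23. Among them were Ipo5 (0.46 ± 0.10, adjusted p = 0.00376), which imports ribosomal proteins into the nucleus, and Ltv1 (0.41 ± 0.10, adjusted p = 0.00702), an assembly factor of the small subunit. No gene of these 3 lists was called lower in that comparison. Fold changes below 0 were found in 0 of 11, 7 of 35 and 3 of 23 genes, in the order of the lists. The background is the 6.88% of all genes that were called higher.

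Among regulators of TOP mRNAs and S6 kinases, 3 of 19 (15.8%) were called higher in cS5Ahi than in WT, where 6.88% of all genes were, and 3 of 19 than in cS5Alo, where 4.87% of all genes were. Rptor, the subunit of mTORC1 that binds its substrates, was at 48.5 ± 4.74 CPM (SD, n = 5) in WT, 46.8 ± 6.19 (n = 5) in cS5Alo and 70.6 ± 9.68 (n = 5) in cS5Ahi (0.54 ± 0.12 against WT, adjusted p = 0.00345; 0.59 ± 0.12 against cS5Alo, adjusted p = 0.00252). Larp1, the RNA-binding protein that represses TOP mRNAs when mTORC1 is off, was at 0.45 ± 0.15 against WT (adjusted p = 0.0487) and 0.66 ± 0.15 against cS5Alo (adjusted p = 0.0078). Mitochondrial ribosomal proteins, built into another ribosome, were called higher in 4 of 75 (5.33%) in cS5Ahi against WT, which is under the 6.88% of all genes, with a median of 0.12. Of p53 and its targets, 2 of 18 (11.1%) were called higher, Zmat3 (1.07 ± 0.16, adjusted p = 0.000121) and Phlda3 (2.71 ± 0.63, adjusted p = 0.00554). In cS5Alo against WT, none of these lists held a called gene.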

How the data were processed

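Members and gene lists were chosen with earlier results of these data known. For every sample the authors deposited raw read counts by gene, in whole numbers and without normalisation; per the submitters' processing notes, cutadapt, TopHat 1.4.1, HTSeq 0.6.1p1 and the genome build mm9 were used. Read length, strand setting and treatment of multiply mapped reads are not given in the sources used here. The 5 summary entries of each file were not used as genes; 23.04 to 40.82% of a file's reads lay outside genes. Between 12177642 and 33948416 reads per library were in genes, and no pair of libraries within a group agreed within sampling noise.

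Genes passing filterByExpr (minimum count 10, minimum total 15; 11979 genes) were fitted over all 15 libraries with TMM factors and robust quasi-likelihood in edgeR 4.0.16 under R 4.3.3. Calls needed a p under 0.05 after Benjamini-Hochberg adjustment over all tested genes. SE came from the fold change and its F statistic, and log2 CPM used a prior count of 2. The procedure was tested on simulated data. Coding lengths came from GENCODE M21 (GRCm38) by RefSeq accession, found for all 77 canonical genes, in place of protein lengths. Start windows came from RefSeq (GRCm38.p6; 57 of 77 genes), and no coordinates of the files' build are given. Ratios of paralogues were tested by exact permutation with scipy 1.17.1.

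Named genes were all paralogues; up to 8 called members per direction and comparison, or the 2 largest fold changes where none was called; 10 members picked by role; and those with the 3 highest and 3 lowest levels per coding length and the 3 largest spreads. From other lists up to 2 called genes were named. Values of a few genes that these rules name are not reported here. Alternatives covered scaling, filters, DESeq2 1.42.0, limma 3.58.1 (voom with quality weights), fewer groups, a replicate block, covariates and each library left out; a coding length offset was added after seeing the data.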

Additional observations from a re-analysis of the deposited data

Results flagged for a closer look

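In 108 groups of 5 libraries (the named members in each genotype and 9 summary measures), 8 had an extreme library whose gap to the nearest other, divided by the group's range, was above 0.71. Chance flags about 1 in 20 groups. In cS5Alo, library 5 was low in 4 of them: the share of gene reads in canonical genes was 17.856% beside 23.5 to 25.3% in the other 4, Rpl10 was at 3693 CPM beside 5708 to 6178, Rpl21 at 318 CPM beside 548 to 603, and Rps28 at 3724 CPM beside 6291 to 6945. In cS5Ahi, Rpl23 was high in library 1 at 775 CPM beside 493 to 561, and Rpl15 in library 3 at 3202 CPM beside 1997 to 2289. Rpl3l was high in WT 3 at 0.353 CPM beside 0 in the other WT libraries, and in cS5Alo 2 at 0.329 CPM beside 0 to 0.0919; both rest on a few reads.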

How the results depend on the processing

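The count of canonical genes called in cS5Ahi against WT, 7 in the reported fit, was 1 with library size alone, 2 with upper quartile factors, 4 with scaling without the members, 4 with no filter, 4 with a CPM of at least 1 in at least 5 libraries, 13 with DESeq2, 1 with limma voom, 1 with only the 2 groups, 0 without WT 3, WT 4 and cS5Ahi 4, 0 with a covariate for the B cell score and 4 with one for the share of reads outside genes. It was 1 to 11 with 1 library left out, 5 with RLE factors, 8 without WT 1 and WT 2, and 6 with the coding length offset. The fit without WT 1 and WT 2 kept all cS5Ahi libraries, which were on their own flow cell, so it did not match lanes in this comparison. Genes called higher among all tested genes, 824 in the reported fit, changed too. They were 603 with library size alone, 681 with upper quartile factors, 974 with DESeq2 and 757 with limma voom. They were 635 with only the 2 groups, 541 without WT 3, WT 4 and cS5Ahi 4, and 229 with the B cell score. In cS5Ahi against cS5Alo, 2 canonical genes were called in the reported fit. The count was 1 with no filter, 11 with limma voom (all lower) and 0 with the B cell score. It was 0 with the coding length offset and 1 to 3 with 1 library left out. Genes called lower among all tested genes were 452 in the reported fit, 358 with no filter and 1219 with limma voom. They were 111 with the B cell score and 479 with the coding length offset. The cause was not tested. In cS5Alo against WT the count of canonical genes was 0 under every alternative run. Replicate numbers did not pair the samples: deviations of same-numbered libraries correlated at -0.32 to 0.20. With the replicate block, 0 canonical genes were called in cS5Ahi against WT (1252 of all genes, 1692 without the block), 0 in cS5Alo against WT and 1 in cS5Ahi against cS5Alo (727, 1035 without). Library size alone moved the median of all genes in cS5Ahi against WT to -0.09 and left 57 of 76 members above 0. Of single-gene values, no called one changed sign. A call was lost in 113 alternatives and gained in 20, with the sign kept. In 128 the sign changed with no call in either fit, and 2107 kept both sign and call status. The tested canonical genes had 271 CPM or more on average in WT; the number of libraries, 5 a group, limits the precision.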

Other observations

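Between the 2 transgenic genotypes, a few genes that work with the ribosome passed the test. In cS5Ahi against cS5Alo, 2 of 11 elongation factors, their regulators and release factors (18.2%) were called and both were higher, where 4.87% of all genes were called higher, 3.77% lower and 8.64% in either direction: Eef1d, a subunit of the exchange factor for eEF1A, had 334 ± 53.1 CPM (SD, n = 5) beside 246 ± 27.7 (n = 5), a log2 fold change of 0.44 ± 0.12 (SE, edgeR adjusted p = 0.0212). Tpt1, itself a known TOP mRNA, had 5738 ± 1270 CPM (n = 5) beside 3489 ± 260 (n = 5), a log2 fold change of 0.72 ± 0.19 (adjusted p = 0.0243). In WT, Tpt1 had 5136 ± 1680 CPM (n = 5), nearer to cS5Ahi than to cS5Alo. Against WT it was not called in cS5Ahi (0.16 ± 0.19, adjusted p = 0.663) or in cS5Alo (-0.56 ± 0.19, adjusted p = 0.308). The importer Ipo5 was at 0.48 ± 0.10 (adjusted p = 0.00495) and was the only called gene of 23 chaperones, importers and assembly factors (4.35%, near the background). None of 35 initiation factors was called in this comparison, with 30 above 0 and 7 at an unadjusted p under 0.05. Of 75 mitochondrial ribosomal proteins 1 (1.33%, under the background) was called, Mrps33, which was lower (-0.59 ± 0.16, adjusted p = 0.0212). Whether these fold changes differ from those of canonical members was not tested.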
